A study of Mus musculus with 13 samples.

Results

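The adhesion receptors described here are 10 genes, taken as a list that was chosen with earlier results of these data known. They are the integrin subunits Itgal, Itgb2, Itga4, Itgb1, Itgb7, Itgae, Itgb3, Itgav and Itga6, and the hyaluronan receptor Cd44. All 10 were found among the 35906 genes with a transcript in the files, and all 10 were tested in every comparison. RNA was sequenced from M2 CD4SP thymocytes, sorted as CD69-MHCI+, from 13 mice, with 1 library per mouse. Every mouse carried the Lm54 TCR transgene, which recognizes a listeriolysin O (LLO) peptide on I-Ab, on a Rag1-/- background. Control mice were Ctsl fl/fl, and CtslΔTEC mice lack the protease cathepsin L in thymic epithelial cells, where Foxn1-cre removes it. The thymocytes themselves were therefore not the cells in which Ctsl was deleted, and their Ctsl level is no check of the genotype. Unstimulated cells came from 4 Ctsl fl/fl mice (mice 1 to 4) and 5 CtslΔTEC mice (mice 1 to 5). Stimulated cells came from 2 Ctsl fl/fl mice (mice 5 and 6) and 2 CtslΔTEC mice (mice 6 and 7), and were cultured for 4 h with plate-bound LLO:I-Ab monomer at 1 µg/ml and soluble anti-CD28 at 250 ng/ml. The labels give no age for the sequenced mice.

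Integrins are heterodimers of an α and a β chain that anchor cells to other cells and to the extracellular matrix. In T cells, signals from the TCR and chemokine receptors switch them from a resting to a ligand-binding shape through the GTPase RAP1, talin and kindlin, a process called inside-out activation. Itgal and Itgb2 encode LFA-1, the receptor for ICAMs on antigen-presenting cells and endothelium. The α4 chain pairs with β1 to bind VCAM1 and fibronectin or with β7 to bind MAdCAM1 in the gut, and β7 also pairs with αE (CD103), which binds E-cadherin. The β3 chain pairs with αV and binds vitronectin and other RGD proteins, α6 pairs with β1 and binds laminin, and CD44 is raised on antigen-experienced T cells. Because chains pair, the level of 1 subunit RNA is not a level of receptor.

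Depth ranged from 25692380 to 39127833 estimated counts per library at rest and from 8085463 to 27184520 after stimulation. The stimulated libraries carry another date in their file names than the unstimulated ones, and unstimulated cells were not cultured, so stimulation, culture and date cannot be told apart. Y-linked transcripts were present in all 5 unstimulated CtslΔTEC libraries and in 1 of 4 Ctsl fl/fl libraries (mouse 3), whereas each stimulated group held 1 library with them. Of the cell type markers, Cd4 stood at 579 ± 19.5 TPM (SD, n = 4) in unstimulated Ctsl fl/fl and 544 ± 26.3 (SD, n = 5) in CtslΔTEC cells. Of the 10 M2 CD4SP markers listed, 6 were lower and 1 was higher in resting CtslΔTEC cells (edgeR, adjusted p under 0.1), beside 8.36% of all genes lower and 6.42% higher, the shares against which the marker counts here are to be read, with a median log2 fold change of -0.40 against 0.01 over all genes. Among them were Il7r, the IL-7 receptor chain (-1.08), Klf2 (-0.71), S1pr1, the egress receptor (-0.65), and H2-K1, which was higher (0.35). Of 9 double-positive (DP) stage markers tested, 8 were higher and 0 lower in CtslΔTEC cells, with a summed level of 111 to 148 TPM in unstimulated Ctsl fl/fl and 431 to 508 TPM in CtslΔTEC cells. The DP list holds Cd8a, Cd8b1, Tmie and Slc16a5, which the paper reported as higher in CtslΔTEC cells in this same comparison. The DP count was thus partly set in advance. The summed level of 7 CD8 lineage markers ranged from 74.3 to 93.7 TPM and from 189 to 233 TPM, but only 3 of the 6 tested were higher and 2, Runx3 and Nkg7, were lower. The higher sum lay mainly in Cd8b1, with means of 32.7 and 156 TPM, which is also on the DP list, and in Cd8a, with 2.27 and 15.8 TPM. Of 9 thymic epithelial markers, Foxn1, Krt5, Krt8 and Krt14 had at most 3 counts in every library, and the 9 summed to 18.9 to 32.0 TPM and 15.8 to 22.5 TPM. Most of that was Ly75 (20.9 and 15.3 TPM, not called). Of the 4 tested, Epcam was higher (1.36 and 2.36 TPM) and Prss16 lower (4.63 and 2.12 TPM) in CtslΔTEC cells. The 8 innate-like T and NK cell markers summed to 51.5 to 62.8 TPM and 70.8 to 100.6 TPM, without overlap, and of the 2 tested 1 was higher and 1 lower. Of 6 regulatory T cell markers 2 were higher and 1 lower, and of 6 myeloid and dendritic cell markers tested 2 were higher and 1 lower, with sums that overlapped between genotypes. The part of these shifts in the differences below was not tested, and in bulk RNA a change in the share of cells and a change per cell cannot be told apart.

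Promoter sequence was at hand for 5 of the 10 members. It is shown for the subunits Itga4 and Itgb7, which were both lower after stimulation, and for Cd44, which was higher, so the choice of windows followed the members' values. Each line gives the 250 bases before the RefSeq start site (GRCm38.p6), 5′ to 3′ on the strand of the gene. Capitals mark GGAAA (the core bound by NFAT, which also holds the ETS core GGAA) and CACCC (the core bound by KLF factors, shared with the SP family), each on either strand. Itga4 lies at chr2:79255176-79255425 (plus strand), Itgb7 at chr15:102231936-102232185 (minus strand) and Cd44 at chr2:102901666-102901915 (minus strand).
Itga4: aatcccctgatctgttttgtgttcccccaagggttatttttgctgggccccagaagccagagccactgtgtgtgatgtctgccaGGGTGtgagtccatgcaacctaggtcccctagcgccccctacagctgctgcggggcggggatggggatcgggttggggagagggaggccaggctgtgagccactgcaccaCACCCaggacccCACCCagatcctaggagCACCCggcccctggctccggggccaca
Itgb7: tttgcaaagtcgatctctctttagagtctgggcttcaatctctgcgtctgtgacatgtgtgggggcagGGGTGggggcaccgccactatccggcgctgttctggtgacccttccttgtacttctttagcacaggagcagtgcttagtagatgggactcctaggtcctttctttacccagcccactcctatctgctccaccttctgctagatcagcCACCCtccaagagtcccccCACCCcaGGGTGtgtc
Cd44: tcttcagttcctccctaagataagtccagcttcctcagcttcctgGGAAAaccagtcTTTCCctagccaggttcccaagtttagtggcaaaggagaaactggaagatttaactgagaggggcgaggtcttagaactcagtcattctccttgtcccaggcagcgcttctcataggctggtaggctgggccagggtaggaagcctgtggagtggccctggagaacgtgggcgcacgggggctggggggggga
The Itga4 window held 4 matches to CACCC and none to GGAAA, and the Itgb7 window likewise 4 and 0. The Cd44 window held 2 matches to GGAAA and 0 to CACCC. Among 32851 promoter windows of this length, 52% held at least 1 CACCC and 2.14% held 4 or more, and 55.6% held at least 1 GGAAA and 21.4% held 2 or more. TGANTCA (AP-1, in 6.75% of all windows) and TGTTTAC (FOXO, 3.17%) matched none of the 3 windows, and TGTGGT (RUNX, 14%) matched the Itga4 window once. Of the windows not shown, that of Itgb1, which also rose on stimulation, held 2 matches to CACCC and 1 to GGAAA, and that of Itgav, which fell in CtslΔTEC cells, held 1 and 0. CACCC thus lay in windows of members that fell and of one that rose, and GGAAA in those of the 2 that rose alone, which over 5 windows is a description only. A match is a description of letters and not a bound site.

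At rest, β7 led the transcripts of this group, followed by the LFA-1 chains and β3. Levels between genes are given in TPM, which corrects for transcript length. In unstimulated Ctsl fl/fl cells Itgb7 stood at 559 ± 45.7 TPM, Itgb2 at 311 ± 18.2, Itgal at 224 ± 9.29 and Itgb3 at 199 ± 7.37 (SD, n = 4). Itga4 (52.6 ± 9.82), Itga6 (45.1 ± 8.70) and Itgb1 (33.1 ± 1.68 TPM) came next, and neighbours in this order overlapped between mice. Cd44 (19.9 ± 0.920), Itgav (8.48 ± 1.07) and Itgae (0.299 ± 0.177 TPM) closed the order. In unstimulated CtslΔTEC cells the order of the 10 means was the same, and there Itga4 overlapped Itga6 and Cd44 overlapped Itgav. Itgb2 and Itgal led after stimulation, Cd44 moved from rank 8 to rank 3 in Ctsl fl/fl and rank 4 in CtslΔTEC cells, and Itgb7 moved from rank 1 to rank 4 and 5. With protein-coding transcripts alone, their TPM rescaled to the same total per library, Itgb1 stood above Itga6 in unstimulated Ctsl fl/fl cells (44.5 against 28.8 on that scale, which is not the scale of the levels above).

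**Figure D1:**
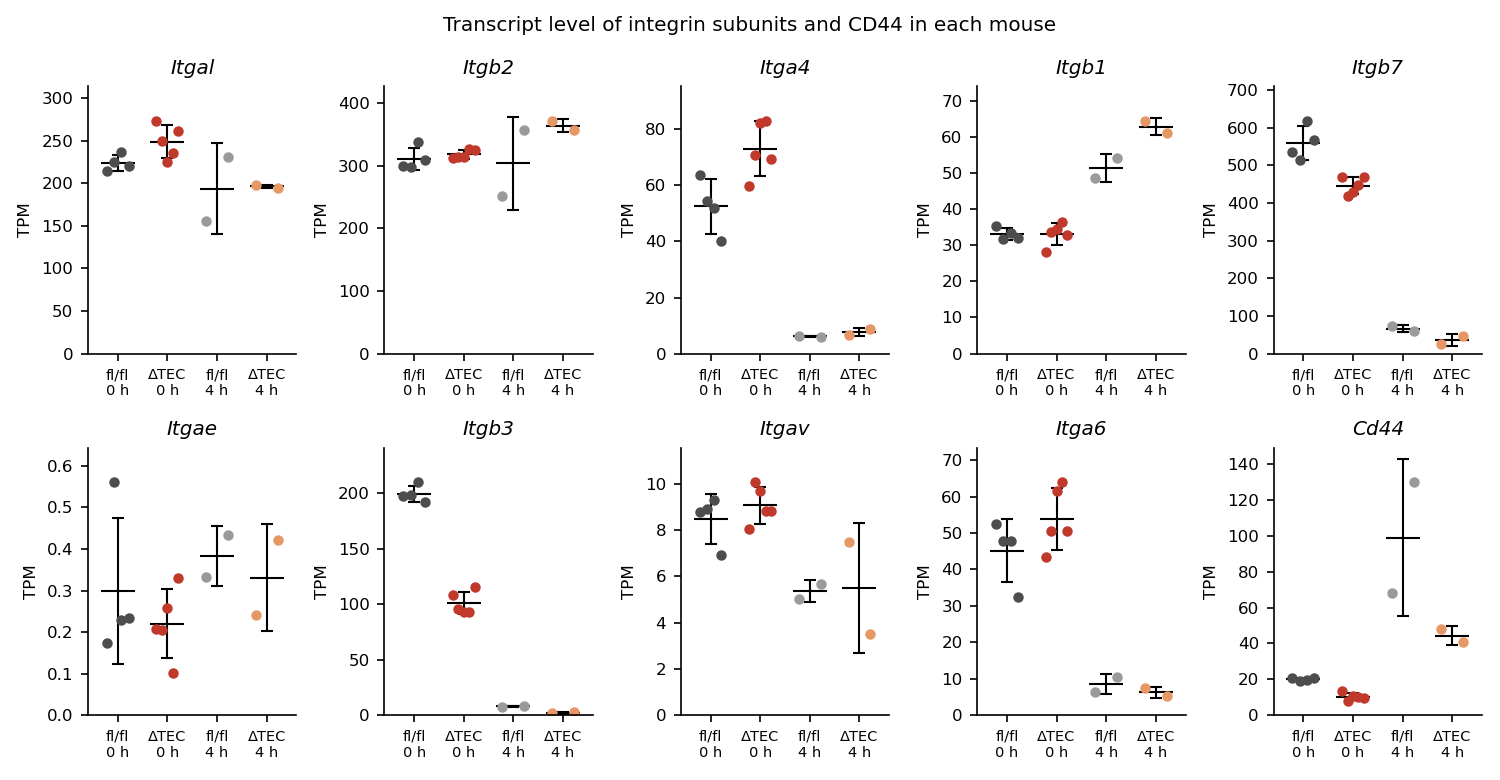
TPM of the 10 members (vertical axes, linear from 0, own scale in each panel) in the 4 groups (fl/fl or ΔTEC, 0 h or 4 h), with 1 point per mouse and bars for the group mean and SD. Itgb3, Cd44 and Itgb7 separate the unstimulated genotypes without overlap, and Itga4, Itgb7, Itgb3 and Itga6 fall to low levels at 4 h.

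The first comparison asked whether selection without CTSL left a mark on the adhesion receptors of resting M2 cells. Itgb3 and Cd44 were about halved in CtslΔTEC cells, Itgb7 was lower by a smaller margin and Itga4 was higher. Of the 10 members, 3 fell and 1 rose at an adjusted p under 0.1 (edgeR quasi-likelihood test, Benjamini-Hochberg adjustment over 13152 genes). Of all genes tested, 8.36% were called lower and 6.42% higher, and with library totals as the only scaling 56.8% of the calls were higher instead of 43.4%. The median log2 fold change was -0.02 over the members and 0.01 over all genes.

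Itgb3 (chr11:104608000-104670476, plus strand) stood at 197, 199, 209.7 and 192 TPM in Ctsl fl/fl mice 1 to 4. In CtslΔTEC mice 1 to 5 it stood at 108, 95.5, 93.0, 93.1 and 116 TPM. Every CtslΔTEC library was thus below every control, and counts differed by -1.03 ± 0.080 on the log2 scale (SE), with an adjusted p of 1.46e-05 (edgeR). The β3 chain is best known from platelets, and of 6 platelet markers 4 were at or near 0: Pf4, Ppbp and Gp1bb had 0 counts in every library and Gp9 at most 1. The 6 markers summed to 2.55 to 3.59 TPM in Ctsl fl/fl and 2.72 to 4.59 TPM in CtslΔTEC cells, nearly all from Itga2b. Itgb3 is carried by 1 protein-coding transcript, which took 99.9 to 100% of its TPM.

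Cd44 (chr2:102811141-102901665, minus strand) stood at 20.6, 18.9, 19.4 and 20.8 TPM in the 4 Ctsl fl/fl mice. In the 5 CtslΔTEC mice it stood at 13.4, 7.68, 10.7, 10.1 and 9.40 TPM, again below every control. The log2 fold change was -1.01 ± 0.11 (SE, adjusted p = 1.17e-04, edgeR). Fits with the Y-linked level as covariate gave -1.07 for Itgb3 and -0.87 for Cd44, both called, and the 1 control with Y-linked transcripts (mouse 3) was at 209.7 and 19.4 TPM. As all 5 CtslΔTEC libraries held such transcripts, that covariate is set apart from genotype mainly by mouse 3. With it 429 genes were called, against 1943 without it.

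Itgb7 (chr15:102215995-102231944, minus strand) ranged from 513 to 618 TPM in Ctsl fl/fl and from 419 to 469 TPM in CtslΔTEC cells. The groups did not overlap, and the log2 fold change was -0.45 ± 0.079 (SE, adjusted p = 0.00346, edgeR), or -0.52 (adjusted p = 0.0820) with the Y-linked covariate. Its partner Itga4 (chr2:79255426-79333123, plus strand) went the other way, at 63.9, 54.6, 51.8 and 40.1 TPM in Ctsl fl/fl mice 1 to 4. It stood at 59.7, 70.9, 82.4, 83.1 and 69.4 TPM in CtslΔTEC mice 1 to 5. The groups overlapped by 1 mouse each, and the log2 fold change of 0.44 ± 0.13 (SE) had an adjusted p of 0.0611 (edgeR). That call was lost without Ctsl fl/fl mouse 3 (adjusted p = 0.150) or 4 (0.132), without CtslΔTEC mouse 2 (0.113), 3 (0.128) or 4 (0.136), and with the Y-linked covariate (log2 fold change 0.48, adjusted p = 0.496). Among the 6 libraries with the later of the 2 file dates alone, the values were -1.01 for Itgb3, -1.11 for Cd44, -0.43 for Itgb7 and 0.39 for Itga4, all called, and the earlier date held too few mice (1 against 2). Itga4 shares 1619 exon bases with Cerkl on the other strand, and Cerkl reached at most 10.5 TPM.

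The other 6 members did not pass the test in resting cells. The log2 fold change of Itgb2 was 0.00 (95% interval -0.13 to 0.14), and those of Itgb1 and Itgal were -0.04 (-0.21 to 0.13) and 0.10 (-0.07 to 0.27). Itgav (0.14) and Itga6 (0.19) had wider intervals, and Itgae was near the limit of detection with 9 to 46 estimated counts per library and an interval of -1.37 to 0.41.

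After stimulation the same 3 members were lower in CtslΔTEC cells, and 0 were higher by edgeR's adjusted p (2, Itgb1 and Itgb2, at an unadjusted p under 0.05, and 1, Itgb2, by DESeq2). Over all 14241 genes tested in a model of the 4 groups, 10.6% were called lower and 2.77% higher. The median log2 fold change was -0.27 over the members and -0.05 over all genes. The summed DP markers were at 25.9 to 26.7 TPM in Ctsl fl/fl and 61.2 to 65.6 TPM in CtslΔTEC cells, with Cd8b1 alone at means of 9.44 and 34.5 TPM, and 3 of 10 were called higher and 0 lower. Of the M2 CD4SP markers 4 of 10 were lower and 1 higher, of the CD8 lineage markers 1 of 6 lower and 3 higher, and of the regulatory T cell markers 2 of 6 lower and 0 higher. The part of these markers in the differences between stimulated genotypes was not tested. Itgb3 was at 7.43 and 8.07 TPM in Ctsl fl/fl mice 5 and 6 and at 1.44 and 2.40 TPM in CtslΔTEC mice 6 and 7, a log2 fold change of -1.99 ± 0.18 (SE, adjusted p = 5.56e-05, edgeR). Itgb7 was at 73.3 and 59.4 TPM against 24.0 and 47.7 TPM, with -1.05 ± 0.14 (SE, adjusted p = 3.64e-04). Neither gene overlapped between genotypes, but with 2 libraries per group separation alone says little. Itgb2, Itga4 and Itgb1 also lay apart without overlap, and these were higher in CtslΔTEC cells. Cd44 was at 68.0 and 129.8 TPM in Ctsl fl/fl and at 48.0 and 40.5 TPM in CtslΔTEC cells, with -1.20 ± 0.21 (SE, adjusted p = 0.00280). The 2 control mice differed widely here, and without Ctsl fl/fl mouse 6 the log2 fold change of Cd44 was -0.77 (adjusted p = 0.0201). That fit leaves 1 control library, the shallowest one, and assumes that it varies like the other groups.

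No other member passed the test between stimulated genotypes. Itga6 had a log2 fold change of -0.51 ± 0.22 (SE, adjusted p = 0.184), Itgb1 of 0.26 ± 0.11 (adjusted p = 0.184) and Itgb2 of 0.25 ± 0.11 (adjusted p = 0.207). For Itgal, the value was 0.03 ± 0.14, and for Itga4 it was 0.33 ± 0.20.

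**Figure D2:**
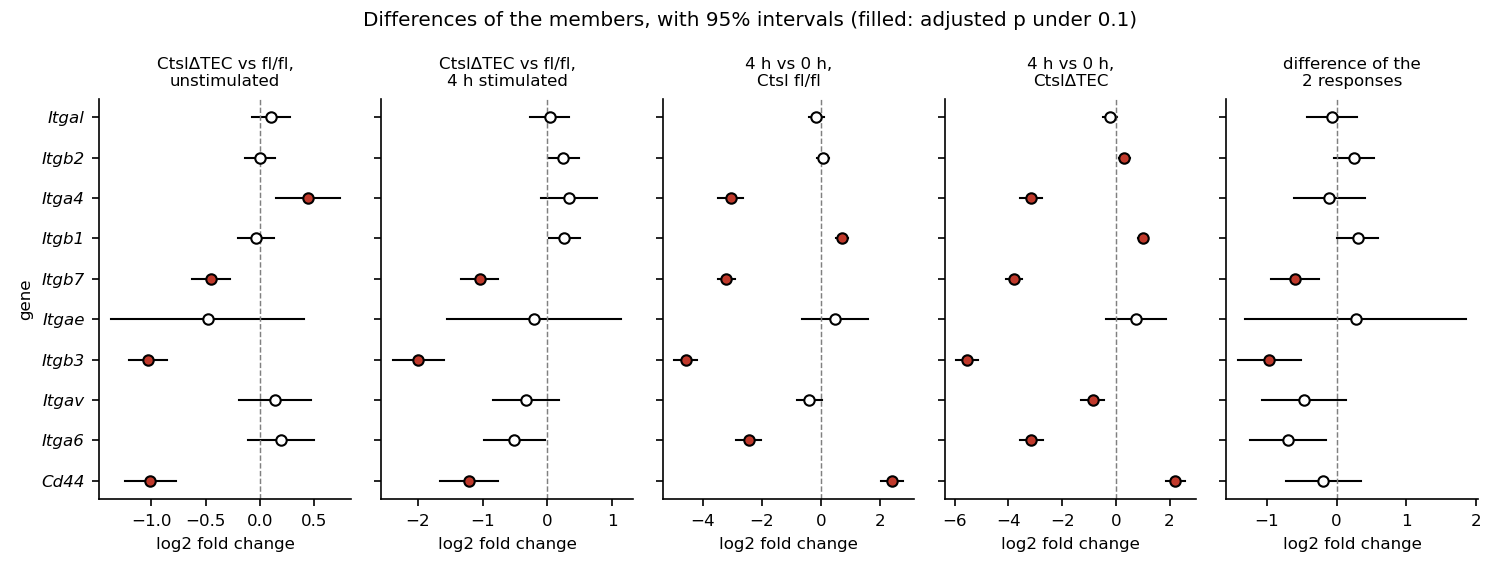
Log2 fold change of estimated counts (horizontal axes, own scale in each panel) of each member in the 5 comparisons, with 95% intervals as lines and filled points where the adjusted p was under 0.1. Itgb3, Itgb7 and Cd44 are filled and negative in both comparisons of genotype, and the last panel is the response of CtslΔTEC minus that of Ctsl fl/fl cells.

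Stimulation for 4 h changed most genes tested, and the count of members called was near the share over all genes, so that the results here are those of single members. In Ctsl fl/fl cells 2 members rose and 4 fell, where 32.9% of all genes were called higher and 34.8% lower. In CtslΔTEC cells 3 rose and 5 fell, where 32.9% of all genes were called higher and 38.2% lower. All 10 activation genes listed, among them Cd69, Il2ra and Tnfrsf9, rose in both genotypes. Cell type markers moved too. The M2 CD4SP markers fell in 8 of 10 cases and rose in 1 in either genotype, the DP markers fell in 7 and 9 of 10 and rose in 1, and the 4 erythroid markers tested all fell, with medians of -2.54 in Ctsl fl/fl and -3.74 in CtslΔTEC cells. Of 6 regulatory T cell markers 4 rose and 2 fell in either genotype. Their part in the falls and rises of the members was not tested. The median log2 change was -0.27 over the members in Ctsl fl/fl and -0.54 in CtslΔTEC cells, beside 0.01 and -0.06 over all genes. Library totals as the only scaling moved the latter median to -0.21, and the changes given here are on the TMM scale.

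The largest falls among the members were those of Itgb3, from a mean of 199 to 7.75 TPM in Ctsl fl/fl and from 101 to 1.92 TPM in CtslΔTEC cells. The log2 changes were -4.58 ± 0.18 (SE, adjusted p = 2.47e-11, edgeR) and -5.54 ± 0.19 (SE, adjusted p = 4.84e-12). In counts these were falls by 23.8-fold (95% interval 18.3 to 31.1) and 46.5-fold (35.0 to 61.8). The stimulated CtslΔTEC libraries still held 74 and 177 estimated counts of Itgb3, so that the gene was detected in each. Its α partner Itgav changed less, with -0.39 ± 0.20 (adjusted p = 0.106) in Ctsl fl/fl and -0.86 ± 0.20 (adjusted p = 0.00155) in CtslΔTEC cells. The Itgb3 to Itgav ratio of TPM was 23.8 ± 2.67 (SD, n = 4) at rest and 1.45 ± 0.0408 (SD, n = 2) after stimulation of Ctsl fl/fl cells. In CtslΔTEC cells it was 11.2 ± 1.91 (SD, n = 5) and 0.440 ± 0.351 (SD, n = 2).

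The subunits of α4β7 fell together. Itga4 went from a mean of 52.6 to 6.10 TPM in Ctsl fl/fl (log2 change -3.05 ± 0.20 SE) and from 73.1 to 7.65 TPM in CtslΔTEC cells (-3.16 ± 0.19). Itgb7 went from 559 to 66.3 TPM (-3.21 ± 0.13) and from 446 to 35.9 TPM (-3.80 ± 0.14). The alternative partner of α4 went the other way: Itgb1 (chr8:128685654-128733200, plus strand) rose by 0.72 ± 0.095 in Ctsl fl/fl (SE, adjusted p = 9.74e-06, edgeR) and by 1.02 ± 0.090 in CtslΔTEC cells (SE, adjusted p = 9.79e-08). In TPM, Itgb1 was at 31.7 to 35.4 in unstimulated and at 48.6 and 54.1 in stimulated Ctsl fl/fl cells, and at 28.0 to 36.3 and at 64.4 and 61.1 in CtslΔTEC cells. The 2 states did not overlap in either genotype.

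The balance of β chains was therefore different after 4 h. The Itgb7 to Itgb1 ratio of TPM was 16.9 ± 1.54 (SD, n = 4) at rest and 1.30 ± 0.291 (SD, n = 2) after stimulation of Ctsl fl/fl cells. In CtslΔTEC cells it was 13.6 ± 1.92 (SD, n = 5) at rest and 0.577 ± 0.288 (SD, n = 2) after stimulation, so that Itgb1 exceeded Itgb7 in both libraries. Within protein-coding transcripts alone the mean log2 ratio in stimulated Ctsl fl/fl cells was -0.07, so the order of Itgb7 and Itgb1 in that group depends on the transcripts counted. These ratios are descriptions and were not tested.

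**Figure D3:**
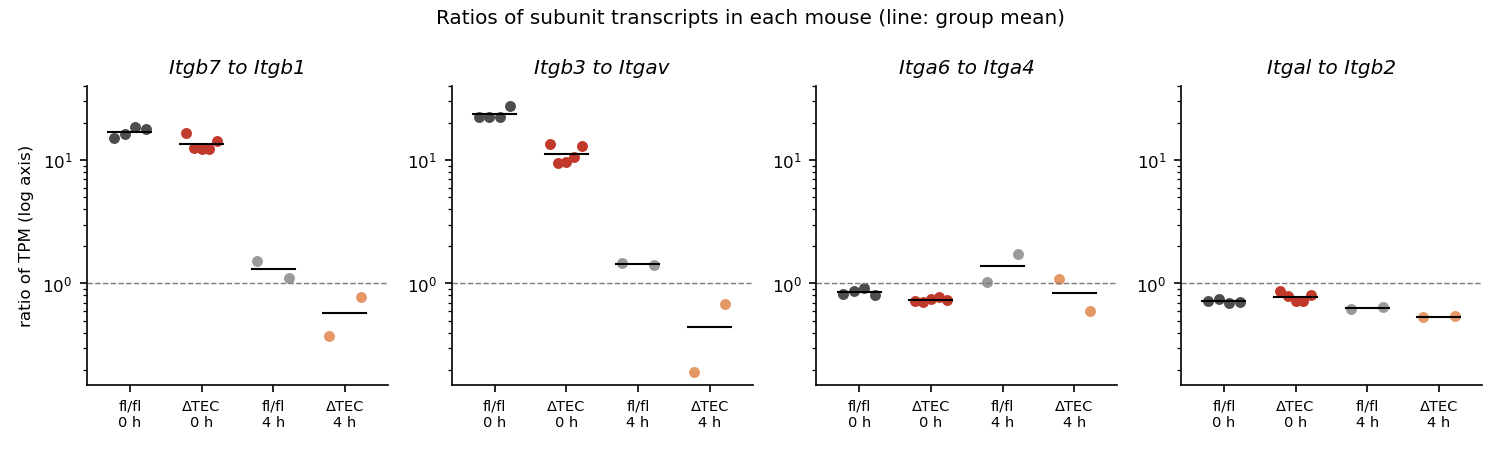
Ratio of TPM of 4 pairs of subunits (vertical log axes, 1 point per mouse, line at the group mean, dashed line at 1) in the 4 groups. Itgb7 to Itgb1 and Itgb3 to Itgav fall from at least 9.48 in every unstimulated mouse to 1.51 or less in every stimulated one. Itgal to Itgb2 lies at 0.701 to 0.874 in unstimulated and at 0.531 to 0.648 in stimulated mice, without overlap.

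Itga6, the laminin receptor chain, went from a mean of 45.1 to 8.40 TPM in Ctsl fl/fl (log2 change -2.45 ± 0.20 SE, adjusted p = 5.07e-08, edgeR) and from 54.0 to 6.19 TPM in CtslΔTEC cells (-3.14 ± 0.21, adjusted p = 3.28e-09). The LFA-1 chains changed little beside these. Itgb2 rose by 0.32 ± 0.093 in CtslΔTEC cells (SE, adjusted p = 0.00735), a call lost with library totals as the only scaling (0.17, adjusted p = 0.123), and its change in Ctsl fl/fl cells was 0.07 ± 0.097. Itgal had -0.16 ± 0.12 and -0.22 ± 0.12, with adjusted p of 0.273 and 0.108. With library totals as the only scaling both were called, at -0.25 (adjusted p = 0.0892) and -0.37 (adjusted p = 0.0132). Of 23 other settings, 2 called Itgal in Ctsl fl/fl and 8 in CtslΔTEC cells. Stimulated Ctsl fl/fl mice 5 and 6 stood at 156 and 231 TPM for Itgal and at 252 and 357 TPM for Itgb2, whereas CtslΔTEC mice 6 and 7 stood at 198 and 195 and at 372 and 357 TPM. Ctsl fl/fl mouse 5 was also the shallowest library.

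Cd44 rose in both genotypes, by 2.41 ± 0.17 on the log2 scale in Ctsl fl/fl (SE, adjusted p = 1.23e-08, edgeR) and by 2.22 ± 0.16 in CtslΔTEC cells (SE, adjusted p = 1.32e-08). Both folds were near 5, at 5.31 (95% interval 4.11 to 6.85) and 4.65 (3.64 to 5.93). The lowest stimulated Ctsl fl/fl library (68.0 TPM) was above the highest stimulated CtslΔTEC library (48.0 TPM), as at rest. Itgae had 8 to 32 estimated counts in stimulated libraries, and no change passed the test in the main fits. In either genotype 1 of 22 other settings gave a call. For Ctsl fl/fl cells it was the fit without unstimulated mouse 2 (0.96, adjusted p = 0.0872). For CtslΔTEC cells it was that of protein-coding transcripts alone, with the other sign (-6.38, adjusted p = 0.0830).

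The last comparison asked whether the response to stimulation differed between genotypes. Of the 10 members, 2 differed by edgeR's adjusted p, and both fell further with stimulation in CtslΔTEC than in Ctsl fl/fl cells. Of all genes, 4.88% were called lower and 1.13% higher in this comparison. The median was -0.15 over the members and -0.06 over all genes. Cell type markers called lower were 2 of 10 DP (median -0.81), 2 of 6 CD8 lineage and 1 of 10 M2 CD4SP markers. The same held for 1 of 6 regulatory T cell markers (median -0.88) and 1 of 4 innate-like T and NK cell markers. In each of these lists 0 were higher, and their part in the interactions was not tested. Itgb3 had an interaction of -0.96 ± 0.21 on the log2 scale (SE, adjusted p = 0.0246, edgeR), which was -0.66 (adjusted p = 0.122) without stimulated CtslΔTEC mouse 6 and -1.42 (adjusted p = 0.00459) without mouse 7. Such fits leave 1 library in the group, whose spread is taken from the other groups. Itgb7 had -0.60 ± 0.16 (SE, adjusted p = 0.0584), with adjusted p from 0.0239 to 0.368 over 23 other settings, of which 9 lost the call. Those 9 included fits without Ctsl fl/fl mouse 1 (adjusted p = 0.119), 2 (0.107) or 5 (0.205), without CtslΔTEC mouse 2 (0.116), 3 (0.102), 5 (0.101) or 6 (0.290), and the Y-linked covariate (0.140). Cd44 had -0.19 ± 0.25 (adjusted p = 0.795, 95% interval -0.73 to 0.34). Itga6 had -0.70 ± 0.26 (adjusted p = 0.178).

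Transcripts of the same gene were estimated by kallisto and are given as shares of its TPM. For Cd44, the transcript without any of the 10 variable exons (Cd44-203) took 50.8 to 65.1% of TPM, and a transcript with 5 of them (Cd44-207) 28.0 to 44.7%. The full set of variable exons (Cd44-201) took 1.74 to 8.21%. Transcripts with 5 or more variable exons summed to 39.9 ± 5.73% (SD, n = 4) and 40.4 ± 5.18% (SD, n = 5) in unstimulated Ctsl fl/fl and CtslΔTEC cells, and to 39.7 ± 0.316% and 34.7 ± 0.318% (SD, n = 2) after stimulation. Cd44-201 and Cd44-207 also have a last exon of 3197 bases against 1791 in Cd44-203, so a share cannot be told apart from use of the longer 3′ end.

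For Itga6, the coding transcript Itga6-201 took 18.7 to 46.5% of TPM and the other coding form of the cytoplasmic tail, Itga6-202, at most 20.6%, in 1 stimulated Ctsl fl/fl library. A 3-exon transcript at the 3′ end, annotated as non-coding, took 29.7 to 56.4%. For Itgb7, the coding transcript Itgb7-201 took 39.8 to 70.3% and a retained-intron transcript of its last exons 17.9 to 36.0%. The latter share was 21.1 ± 2.25% (SD, n = 4) in unstimulated and 31.0 ± 5.24% (SD, n = 2) in stimulated Ctsl fl/fl cells. For Itgb1, the main transcript took 97.2 ± 1.34% and 91.8 ± 0.984%.

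The genes whose profiles over the 13 libraries were most like those of the members were found by the root mean square difference of centred log2 CPM, over 14218 other genes. For Itgb7 they were Sh3bp1 (0.176) and Chst12 (0.178), for Itga4 Cyp2s1 (0.221) and Mturn (0.237), for Itgb3 Arsb (0.257) and Treml2 (0.391), and for Cd44 Adk (0.262) and Cd200 (0.307). The members themselves varied over the libraries with an SD of 1.74, 1.55, 2.56 and 1.25 in the same order. Arsb stood at 3.82, 2.14, 0.160 and 0.0127 TPM in unstimulated Ctsl fl/fl and CtslΔTEC and stimulated Ctsl fl/fl and CtslΔTEC cells.

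Other integrin subunits were present at low levels. Of 13 further α chains, 9 were tested at rest, of which 4 were lower in CtslΔTEC cells, beside 8.36% of all genes, and 5 did not pass, with a median of -0.16. Itga2, a collagen receptor chain, was at 1.84 and 0.810 TPM (-1.23 ± 0.13 SE, adjusted p = 1.16e-04, edgeR), and Itgam, the β2 partner in myeloid cells, at 2.97 and 1.79 TPM (-0.77 ± 0.15, adjusted p = 0.00554). Itga7 was at 1.46 and 0.764 TPM (-0.77 ± 0.20, adjusted p = 0.0288). Between stimulated genotypes 10 were tested, of which 1 was higher and 2 lower in CtslΔTEC cells, beside 2.77% and 10.6% of all genes. After stimulation Itgax, the β2 partner CD11c, was at 2.51 and 8.55 TPM in Ctsl fl/fl and at 0.142 and 0.338 TPM in CtslΔTEC cells (-3.79 ± 0.79, adjusted p = 0.00799). It is also 1 of 10 myeloid and dendritic cell markers, which summed to 7.87 to 21.6 TPM and to 7.15 to 9.19 TPM in these groups, and their part in the Itgax value was not tested. Itgax rose by 5.72 ± 0.65 and Itga2 fell by 3.37 ± 0.27 with stimulation of Ctsl fl/fl cells. Of 4 further β chains, 1 was tested, and it passed in no comparison.

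Of 20 genes of inside-out activation tested, 16 fell and 2 rose with stimulation of Ctsl fl/fl cells, where 34.8% of all genes fell and 32.9% rose, with a median of -0.88. In CtslΔTEC cells 15 fell and 2 rose, where 38.2% of all genes fell, with a median of -0.95. Rasgrp2, the calcium-dependent exchange factor for RAP1, fell by 3.06 ± 0.18 (SE) in Ctsl fl/fl cells, Prkd2, a protein kinase D, by 1.98 ± 0.13 and Apbb1ip, the RAP1 effector RIAM, by 1.70 ± 0.11. Rapgef1, another exchange factor for RAP1, rose by 1.10 ± 0.10 and Rap1a by 0.39 ± 0.11. At rest 6 of the 20 were lower in CtslΔTEC cells, as were 8.36% of all genes, and 14 did not pass, with a median of -0.06. Rasgrp2 went from a mean of 1174 to 802 TPM (-0.52 ± 0.10 SE, adjusted p = 0.00657), and Prkd2 (-0.34 ± 0.072) and Dock2 (-0.31 ± 0.065) were also lower. Stimulated CtslΔTEC cells had less Stk4, the kinase MST1 (-0.72 ± 0.12, adjusted p = 0.00262), and the interaction was -0.71 ± 0.15 for Stk4 and 0.54 ± 0.16 for Rasgrp1.

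Of 11 negative regulators of integrin activation tested, 7 fell with stimulation of Ctsl fl/fl cells and 4 did not pass, with a median of -1.87, where 34.8% of all genes fell. In CtslΔTEC cells 9 fell and 1, Krit1, rose (0.43 ± 0.10 SE), where 38.2% of all genes fell. Rasa3, which inactivates RAP1, fell by 2.20 ± 0.094 and Stk10 by 2.32 ± 0.12 in Ctsl fl/fl cells. At rest 3 were lower in CtslΔTEC cells, beside 8.36% of all genes, and 8 did not pass. The 3 were Flna, the filamin that competes with talin (-0.64 ± 0.087, adjusted p = 6.27e-04), Rasa3 (-0.44 ± 0.064) and Sipa1l1 (-0.30 ± 0.083). Among stimulated cells 4 were lower in CtslΔTEC mice, beside 10.6% of all genes, and 7 did not pass, and Stk10 was at -0.70 ± 0.12.

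Of 18 focal adhesion and actin linkers tested, 5 were lower and 1 higher in resting CtslΔTEC cells, beside 8.36% and 6.42% of all genes. Vcl, the talin-binding vinculin, was at 1.09 and 0.522 TPM (-1.31 ± 0.18 SE, adjusted p = 5.55e-04), and Tln2 was at 0.187 and 0.348 TPM (0.90 ± 0.23). With stimulation of Ctsl fl/fl cells 5 rose and 7 fell, which is near the 32.9% and 34.8% over all genes, among them Ptk2b, the kinase PYK2 (0.96 ± 0.12), and Evl, an actin filament elongation factor (-2.17 ± 0.17). Evl was lower in stimulated CtslΔTEC cells by -1.47 ± 0.19 (adjusted p = 2.99e-04), and its interaction was -1.53 ± 0.22 (adjusted p = 0.00389). Parvg, a parvin that links integrins to actin, had an interaction of -0.96 ± 0.15 (adjusted p = 0.00487).

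Ligands of these receptors were tested where T cells express them. Of 8 tested at rest, where 6.42% of all genes were higher and 8.36% lower, 1 was higher and 3 lower in CtslΔTEC cells: Icam1, the LFA-1 ligand, from 4.93 to 8.80 TPM (0.80 ± 0.10 SE, adjusted p = 3.58e-04), Jaml (-2.31 ± 0.32), Mfge8, an RGD protein bound by αVβ3 (-0.31 ± 0.080), and Tgfb1 (-0.34 ± 0.096). With stimulation of Ctsl fl/fl cells 3 of 9 rose and 2 fell, beside 32.9% and 34.8% of all genes, with Icam5 at 6.70 ± 0.34, Icam1 at 2.10 ± 0.16 and Mfge8 at -2.65 ± 0.13. Mfge8 was lower in stimulated CtslΔTEC cells by -1.38 ± 0.16, with an interaction of -1.07 ± 0.18 (adjusted p = 0.00731). Of 13 CD44 ligands and linkers tested, 2 were lower in resting CtslΔTEC cells, beside 8.36% of all genes, and 11 did not pass: Msn, the ERM protein moesin (-0.35 ± 0.077), and Nf2, merlin (-0.18 ± 0.058). With stimulation of Ctsl fl/fl cells 3 rose and 4 fell, both below the shares over all genes, including Srgn, the proteoglycan serglycin (3.82 ± 0.12), and Lgals9 (-2.35 ± 0.15).

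Of 17 other adhesion receptors of T cells, 3 were higher and 7 lower in resting CtslΔTEC cells, beside 6.42% and 8.36% of all genes, with a median of -0.32. Slamf6 was at 45.8 and 137 TPM (1.56 ± 0.14 SE, adjusted p = 3.49e-05), Cd226 at 100.2 and 140.8 TPM (0.73 ± 0.14) and Cd6, the ALCAM receptor, at 190.1 and 122 TPM (-0.73 ± 0.084). With stimulation of Ctsl fl/fl cells 5 rose and 11 fell, beside 32.9% and 34.8% of all genes: Alcam rose by 6.94 ± 0.33, and Selplg, the P-selectin ligand, fell by 2.27 ± 0.11.

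Of 18 factors known to control member genes in T cells or other tissues, 2 were higher and 8 lower in resting CtslΔTEC cells, beside 6.42% and 8.36% of all genes. Myb was at 8.48 and 58.7 TPM (2.68 ± 0.13 SE, adjusted p = 3.13e-07), Gata3 at 53.3 and 31.7 TPM (-0.80 ± 0.092) and Foxo1 at 78.1 and 58.9 TPM (-0.46 ± 0.072). With stimulation of Ctsl fl/fl cells 4 rose and 13 fell, beside 32.9% and 34.8% of all genes, among them Runx3, known as an activator of Itgae (-2.08 ± 0.13). In stimulated CtslΔTEC cells 2 were higher and 6 lower, beside 2.77% and 10.6% of all genes, among them Runx3 (-1.27 ± 0.15) and Ets1 (-1.40 ± 0.19). No relation between these factors and the members was tested.

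**Figure D4:**
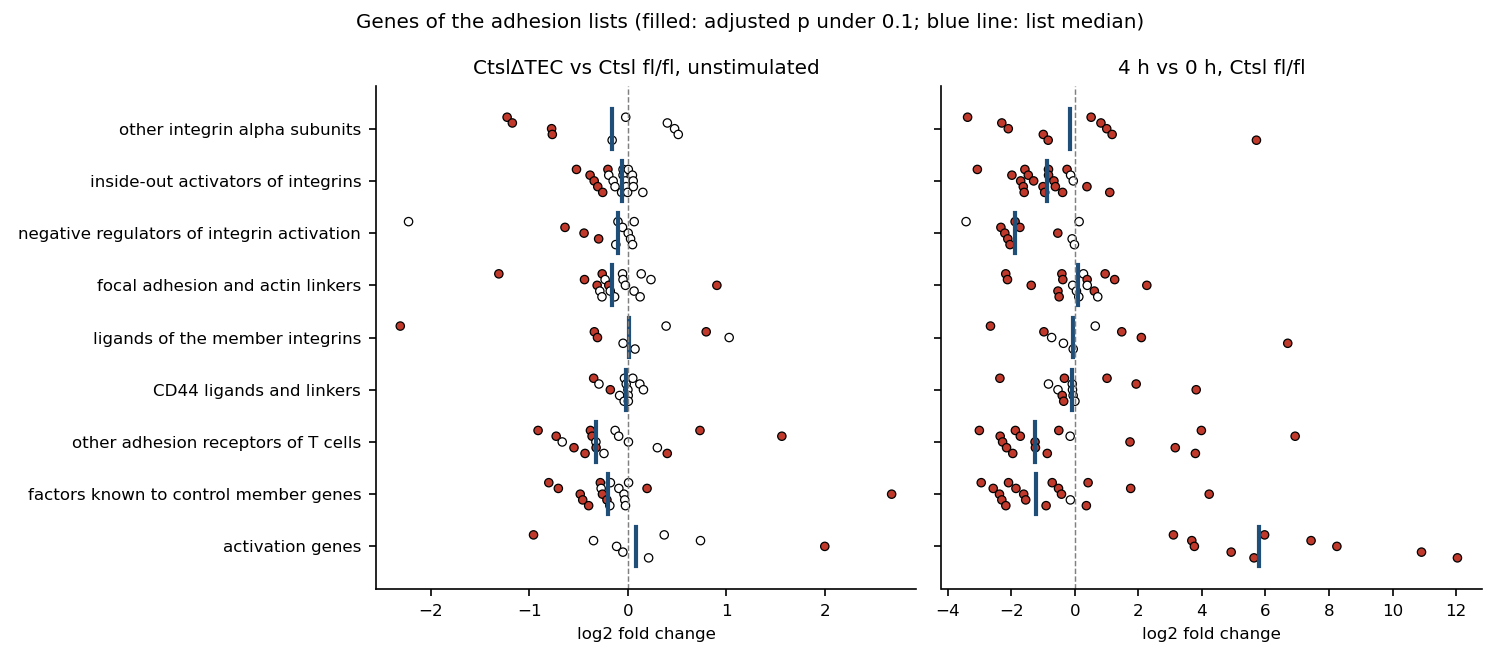
Log2 fold change (horizontal axes, own scale in each panel) of single genes in 9 lists, in CtslΔTEC against Ctsl fl/fl cells at rest (left) and in stimulated against unstimulated Ctsl fl/fl cells (right), with filled points where the adjusted p was under 0.1 and a blue line at the list median. Medians at rest lie between -0.32 and 0.08, and on stimulation those of the activators and negative regulators of integrins lie at -0.88 and -1.87.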

How the data were processed

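The authors quantified transcripts with kallisto 0.48 and deposited, for each transcript and library, estimated counts without normalization, TPM and effective lengths. Of 117497 transcripts, 116397 were paired with a gene through GENCODE M21 (GRCm38), an older annotation than the Ensembl release used by the authors. Transcripts without a gene took 0.365 to 0.461% of counts. Estimated counts were summed to genes and rounded, and TPM was summed. edgeR 4.0.16 (R 4.3.3) was used with filterByExpr, TMM and the quasi-likelihood test, over the 9 unstimulated libraries for resting cells and a 4-group model of 13 libraries otherwise, with Benjamini-Hochberg adjustment over all genes and a threshold of 0.1. SE was derived from the F statistic. Alternatives were DESeq2 1.42.0, other scalings and count filters, a length offset, protein-coding transcripts, covariates for date, mouse number and Y-linked transcripts, thinning, and fits without 1 mouse. A single p covers the spread between mice. Intervals are at 95%.

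The members and gene lists were chosen with earlier results of these data known. Named are all members, up to 3 genes per direction, list and comparison with the smallest p among those called (not all are printed, and 1 is not reported here), and the 2 genes most alike for members called in 3 or more comparisons. Nothing in the labels says that mouse numbers 1 to 4 pair samples. Correlations of deviations between same-numbered mice were -0.17, 0.37, -0.09 and -0.19, which does not show pairing and cannot exclude it. Fits were tested on simulated counts. Promoters are from RefSeq (GRCm38.p6).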

Additional observations from a re-analysis of the deposited data

Results flagged for a closer look

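The response to stimulation differed between genotypes for 2 members by a test of the difference itself. Itgb3 had an interaction of -0.96 on the log2 scale (edgeR, adjusted p = 0.0246), and Itgb7 one of -0.60 (adjusted p = 0.0584). Stimulated CtslΔTEC mouse 6 had the lowest Itgb3 and Itgb7 of all libraries, at 1.44 and 24.0 TPM. Without it both interactions kept their sign and lost the call, at -0.66 (adjusted p = 0.122) and -0.44 (adjusted p = 0.290), and without mouse 7 that of Itgb3 was -1.42 (adjusted p = 0.00459). Each of these fits leaves 1 library in the stimulated CtslΔTEC group, which is assumed to vary like the other groups.

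Itgae in unstimulated Ctsl fl/fl mouse 2 stood at 0.560 TPM, from 46 estimated counts, apart from the other 3 mice at 0.172 to 0.233 TPM by Dixon's test. It was the 1 such case in 20 sets of 4 or 5 unstimulated mice, and chance gives about 1. Without this mouse the log2 change of Itgae with stimulation of Ctsl fl/fl cells was 0.96 and called (edgeR, adjusted p = 0.0872). In the main fit it was 0.48 and not called.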

How the results depend on the processing

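Up to 24 alternative settings were tried per comparison. Calls of Itgb3, Itgb7 and Cd44 between genotypes, at rest and after stimulation, were kept in all of them, as were the stimulation calls of Itga4, Itgb1, Itgb7, Itgb3, Itga6 and Cd44 in both genotypes and of Itgav in CtslΔTEC cells. Leaving out 1 mouse gave 3 to 4 called members at rest, 3 to 4 after stimulation, 6 to 7 and 8 to 9 for the stimulation responses and 0 to 3 for the interaction. The interaction count of 2 was 1 with the effective length offset, with the Y-linked covariate and at an adjusted p of 0.05. A replicate block of mouse number, which is not known to pair the mice, gave 3 called members at rest (Itga4: 0.46, adjusted p = 0.201). Itgae reversed under protein-coding transcripts alone in the response of CtslΔTEC cells, to -6.38 (adjusted p = 0.0830), where its retained-intron transcript took 99.8% of its TPM in the stimulated group. Libraries with Y-linked transcripts only, 5 against 1 and chosen after seeing the data, gave -1.08 for Itgb3, -0.54 for Itgb7 and -0.90 for Cd44, each called, and lost Itga4 (adjusted p = 0.330). With 1 control, as in fits that leave 1 stimulated mouse in a group, the lone library is assumed to vary like the others, so these settings say little of stability. The number of genes called at rest was 1943 and ranged from 400 in that setting to 2710 with file date as a factor. After stimulation it was 1898 and ranged from 945 to 2235, and for the interaction 856, from 334 to 1227. Over the members' fold changes in all settings, 21 lost a call, 25 gained one, and 32 changed sign without a call in either fit. Counting depth limits Itgae, and 2 mice per stimulated group limit that comparison and the interaction.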
